A study of Mus musculus with 6 samples.

Results

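Livers of C57BL/6J mice on the study's control diet were compared here between week 10 and week 2 of feeding. The comparison holds 2 of the 6 arrays of the series, 1 for each week, and no replicates, so every difference is a size with no test and no p-value. The C57BL/6J strain is an inbred laboratory mouse that gains weight on high-fat food. The series assigned such mice at random to a control diet, labelled C, or a high-fat diet, labelled HF in the sample titles and HFC in the design text, and collected livers at weeks 2, 4 and 10. Total RNA of frozen liver was labelled with biotin and hybridised to Affymetrix arrays, which report a fluorescence intensity for each probe set, a group of short oligonucleotides against one transcript. No genotype or drug treatment is labelled. The makeup of the diets, the sex and age of the mice, the hour of collection and how many mice went into each array are not given in the labels. Time on the diet and the age of the animals run together in this comparison and cannot be told apart. The high-fat arrays of weeks 2 and 10 are of the same array design and share no array with the control pair, and their values are given beside the control values below.

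The adult liver makes most plasma proteins, clears drugs and ammonia, and builds cholesterol, fatty acids and bile acids. Hepatocytes do most of this work, and Kupffer cells, the resident macrophages, and the sinusoidal endothelium line the blood spaces between them. Many liver transcripts follow feeding, the hour of the day and growth hormone.

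The deposited control arrays were on different scales, with a mean after trimming 2% at each end of 800.3 at week 2 and 500.2 at week 10. Both were therefore centred on a common median, with factors of 0.708 for week 2 and 1.14 for week 10. A floor was set at a rescaled signal of 154, the pooled 40th percentile, and 60.6% of probe sets at week 2 and 60.9% at week 10 lay above it. The brightest probe set on average stood for each of 12393 named genes, of which 7798 were above the floor on both control arrays, 1376 on 1 and 3219 on neither. The arrays also differed in their control probe sets. The 18 bacterial spike-in probe sets were 2.83- to 9.85-fold brighter on the week 10 array (median 5.79-fold), against 1.11- to 2.45-fold on the high-fat pair. The signal ratio of the 3' to the 5' probe set was 1.20 at week 2 and 1.73 at week 10 for Actb, 0.783 and 0.906 for Gapdh, and 3.82 and 4.01 for Pcx. On the high-fat pair the ratios went the other way, at 1.61 and 1.17 for Actb, 1.01 and 0.832 for Gapdh, and 9.64 and 2.39 for Pcx. Such ratios rise when RNA is degraded. The part of these gaps in the gene differences below was not tested.

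Of the 7798 genes, 176 (2.26%) were at least 2-fold higher at week 10 and 124 (1.59%) at least 2-fold lower. On the values as deposited, with the unequal scales left in, the split would have been 24 higher and 1618 lower. At a size of 1.5-fold, 811 genes (10.4%) were higher and 626 (8.03%) lower. The differences had a median of 0.02 on the log2 scale and an SD across genes of 0.46, and 9 in 10 lay between −0.69 and 0.78. The same sizes on the high-fat diet, among 7545 genes, gave 259 higher (3.43%) and 306 lower (4.06%). These shares are the background for every count below.

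The most abundant liver transcripts were the exception to the common centre. Of the 78 genes in the brightest 1%, 40 were at least 1.5-fold higher at week 10 and 0 were lower, with a median difference of 0.59. The next 4% had a median of 0.11 and the other genes medians of −0.03 and 0.02. On the high-fat pair the same 78 genes had a median of 0.30. Alb, the gene of serum albumin, read 37446 at week 2 and 79019 at week 10, a log2 difference of 1.08. That difference was 0.59 after a loess correction for brightness and 0.20 after quantile normalization.

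**Figure D1:**
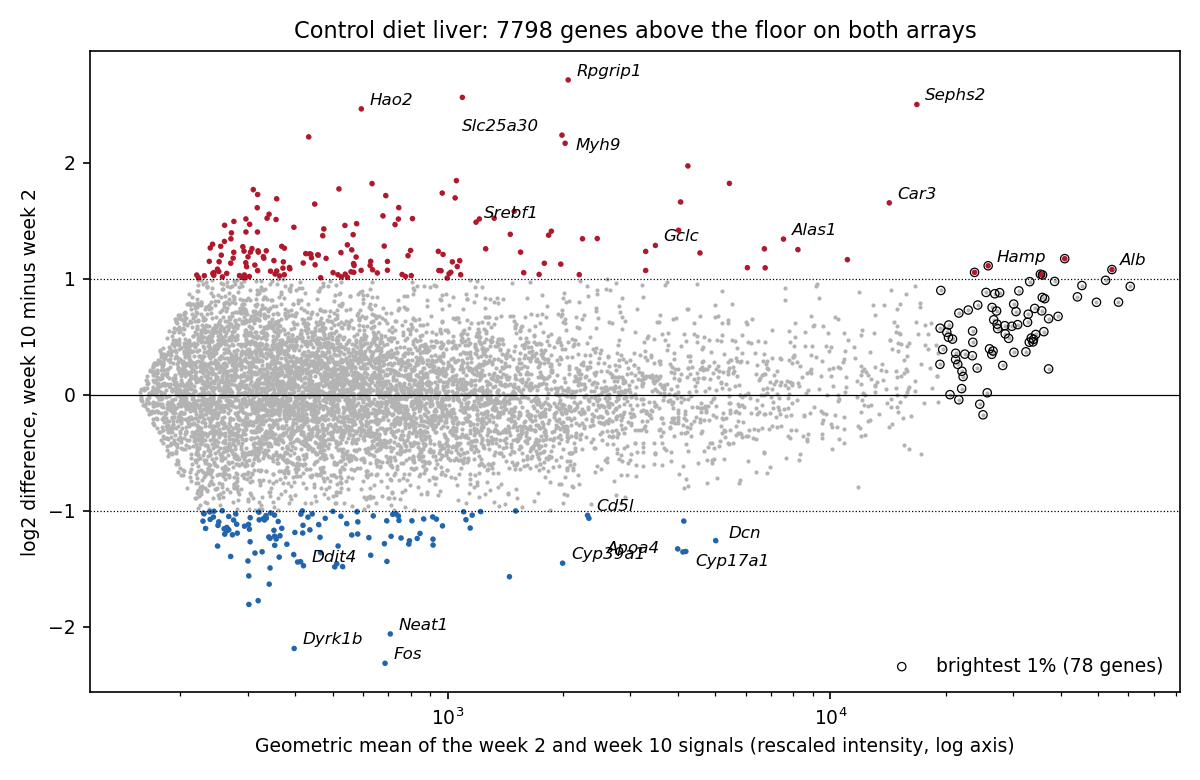
Each point is 1 of the 7798 genes above the floor on both control arrays, with the geometric mean of its week 2 and week 10 signals on the horizontal log axis and the log2 difference, week 10 minus week 2, on the vertical axis. Red and blue points are at least 2-fold higher (176) or lower (124), and the open circles, the brightest 1%, lie mostly above 0 with a median of 0.59.

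Further probe sets of the same gene gave a check within each array. A second probe set above the floor was present for 2456 genes, and the differences from the first and the second had a Pearson correlation of 0.21 and a Spearman correlation of 0.19 across genes. Both probe sets read the same 2 arrays and genes are not independent replicates, so this describes measurement only. The gap between the 2 differences had a median of 0.38, and 5% of genes had a gap above 1.19 on the log2 scale. Of 93 genes at least 2-fold different with a second probe set, 64 (68.8%) had the same sign on it, 17 were at least 1.5-fold the same way and 5 at least 1.5-fold the opposite way. Among genes under 1.5-fold, 55.0% had the same sign. The median size among the 93 was 1.23 on the first probe set and 0.25 on the second, so most single 2-fold differences were not repeated at that size. Genes with at least 1 concordant further probe set are therefore described first. Each gene's rescaled signal is given at week 2 and then week 10, and its difference as log2, week 10 minus week 2.

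**Figure D2:**
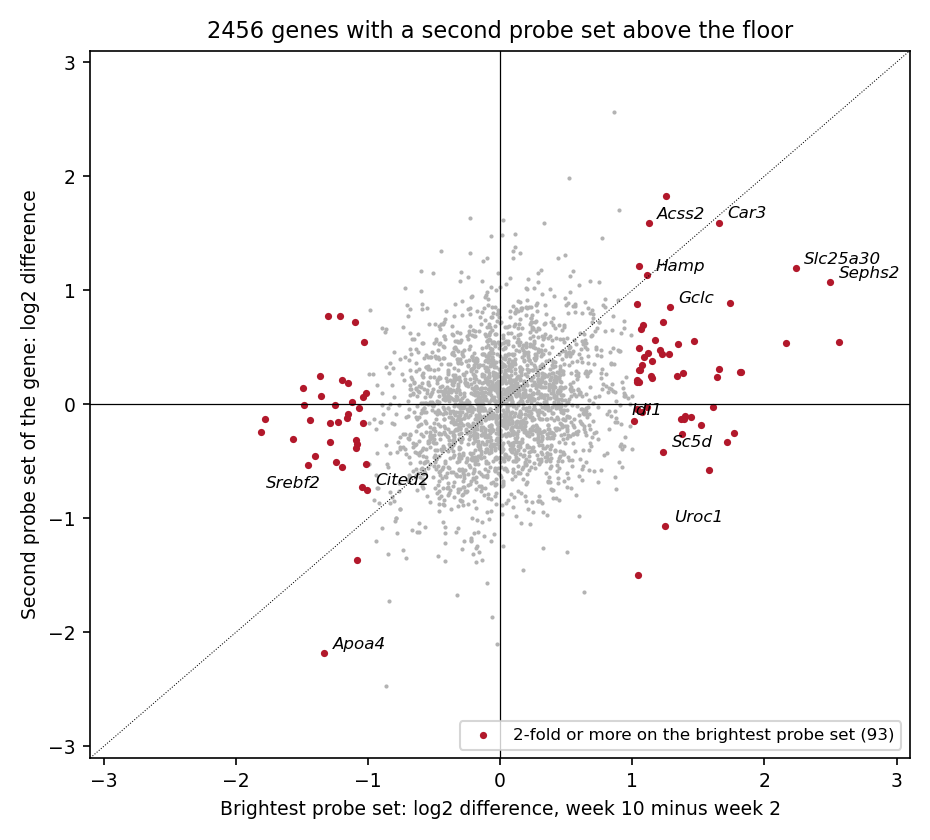
Each point is 1 of 2456 genes, with the log2 difference, week 10 minus week 2, of its brightest probe set on the horizontal axis and of its second probe set on the vertical axis. The 93 red points are at least 2-fold different on the first. Car3, Acss2, Hamp and Apoa4 lie near or beyond the dotted line of equality, and Idi1, Sc5d and Uroc1 have the opposite sign on the second.

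Car3, carbonic anhydrase III, an abundant cytosolic protein of liver, fat and muscle, read 8035 at week 2 and 25265 at week 10, 3.14-fold higher. Its second probe set read 2503 and 7550, a log2 difference of 1.59 against 1.65 on the first. On the high-fat diet Car3 read 8678 and 25637, so that both week 10 arrays were about equally high. Sephs2, which makes the selenium donor for selenoproteins, read 7070 and 39999, or 2.50 on the log2 scale, with 1.07 and 0.86 on its further probe sets. Slc25a30, a mitochondrial carrier, read 916 and 4314, or 2.24, with 1.19 to 2.16 on 3 further probe sets. Neither Sephs2, at 0.66, nor Slc25a30, at −0.18, was 2-fold different on the high-fat diet.

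Gclc, the catalytic subunit of the enzyme that limits glutathione synthesis, read 2234 and 5445, or 1.29, with 0.85 on its second probe set. Ccnd1, cyclin D1, read 812 and 1941, or 1.26, with 1.83 and 0.66 on 2 others. Hamp, the iron hormone hepcidin, read 17584 and 37952, or 1.11, with 1.13 on its second probe set, and it was 0.77 after loess and 0.61 after quantile normalization. The rule for supported genes also named Myh9 at 2.17, Samhd1 at 1.82, Taok1 at 1.74, Sars at 1.23 and Rcor1 at 1.15, whose further probe sets were smaller. They ranged from −0.07 to 0.60 for Myh9 and from −0.16 to 0.89 for Taok1, so not all had the same sign.

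Lower genes with support were fewer, and the rule found 4. Apoa4, an apolipoprotein of triglyceride-rich particles, read 6322 at week 2 and 2516 at week 10, or −1.33, with −2.18 on its second probe set. On the high-fat diet Apoa4 was higher on both arrays, at 14948 and 7865, and again lower at week 10. Defb1, a defensin peptide, read 918 and 445, or −1.05, with −0.72 on its second probe set and −1.24 on the high-fat diet. Cited2, a transcriptional co-regulator, read 822 and 408, or −1.01, with −0.75 on its second. Ugcg, which makes glucosylceramide, was at −1.15 but ended near the floor, at 156, with −0.59 and −0.09 on its further probe sets.

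Sterol and fatty acid synthesis was mixed on the control diet, with several genes higher and a median near 0 for the cholesterol list. Cholesterol is built from acetyl-CoA through mevalonate and isoprenoid units to lanosterol and then cholesterol, under the transcription factor SREBP-2, while SREBP-1c drives fatty acid genes. Of 19 cholesterol genes counted, 8 were at least 1.5-fold higher and 2 lower, against 10.4% and 8.03% of all genes, and the median was 0.08. On the high-fat diet 11 of 17 were at least 1.5-fold higher, with a median of 0.90. Fdps, which makes farnesyl diphosphate, read 478 and 1368, or 1.52. Idi1, the isoprenoid isomerase, read 293 and 757, or 1.37, and Sc5d, a late desaturase, read 2145 and 5044, or 1.23. The second probe set gave −0.13 for Idi1 and −0.42 for Sc5d, and that of Fdps was at the floor on both arrays.

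Cyp51, the lanosterol demethylase, read 199 and 571, with its other probe sets at or near the floor. Tm7sf2 at 0.96, Nsdhl at 0.86, Ebp at 0.62 and Dhcr7 at 0.59, all enzymes of the later steps, were also at least 1.5-fold higher. Sqle, Lss, Mvd, Fdft1 and Hmgcs1 lay between −0.07 and 0.08, although 3 dimmer probe sets of Hmgcs1 gave 0.56 to 0.82. Srebf2, the gene of SREBP-2, read 849 and 309, or −1.46, with −0.53 on its second probe set. Stard4, a cholesterol carrier, was at −0.62. Higher, flat and lower genes thus lay along the same pathway. Msmo1, a methyl sterol oxidase, went from 231 to 175 on the control diet and from the floor to 1346 on the high-fat diet.

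Fatty acid and triglyceride synthesis had 24 genes counted, with 5 higher and 3 lower by 1.5-fold or more, with a median of 0.21, or 0.05 after loess and 0.07 after quantile normalization. Srebf1, the gene of SREBP-1, read 708 and 1984, or 1.49. Acss2, which makes acetyl-CoA from acetate in the cytosol, read 1337 and 2914, or 1.12, with 1.59 on its second probe set. Scd1, the stearoyl-CoA desaturase, was at 0.88 (−0.12 on another probe set), Thrsp, a lipogenic regulator, at 0.80 and Fasn, fatty acid synthase, at 0.74. Acacb, the acetyl-CoA carboxylase that controls fatty acid entry into mitochondria, read 548 and 231, or −1.24. Lpin1, a phosphatidate phosphatase, read 3933 and 2054, or −0.94, with −1.20 on another probe set. Acly, Me1 and Elovl6, which supply carbon, reducing power and chain length, lay at 0.34, 0.05 and −0.48 on the control diet and at 1.86, 2.15 and 1.41 on the high-fat diet.

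The promoters of 3 genes of these routes that were at least 2-fold higher at week 10 on both diets are shown, because their CCAAT boxes can be read directly. A CCAAT box is the site of NF-Y, a factor known to act beside SREBPs. The sequences are RefSeq's of mouse build GRCm38.p6, from 250 bases before to 50 after the annotated start and 300 in all, with CCAAT or its reverse complement ATTGG in capitals. They lie at chr9:42264251-42264550 on the minus strand for Sc5d, chr13:8885356-8885655 on the plus strand for Idi1 and chr2:155517793-155518092 on the plus strand for Acss2.
Sc5d: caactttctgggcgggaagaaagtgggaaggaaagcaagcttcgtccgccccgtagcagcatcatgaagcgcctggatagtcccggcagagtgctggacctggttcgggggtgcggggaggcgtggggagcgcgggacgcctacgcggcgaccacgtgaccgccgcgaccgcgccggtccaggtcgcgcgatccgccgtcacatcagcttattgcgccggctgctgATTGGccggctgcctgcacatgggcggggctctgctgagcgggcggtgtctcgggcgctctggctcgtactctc
Idi1: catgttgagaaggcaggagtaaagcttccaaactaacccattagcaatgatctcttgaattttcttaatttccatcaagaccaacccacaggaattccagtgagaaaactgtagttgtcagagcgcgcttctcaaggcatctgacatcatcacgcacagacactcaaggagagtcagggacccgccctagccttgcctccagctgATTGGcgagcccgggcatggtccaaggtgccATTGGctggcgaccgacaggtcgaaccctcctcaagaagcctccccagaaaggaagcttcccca
Acss2: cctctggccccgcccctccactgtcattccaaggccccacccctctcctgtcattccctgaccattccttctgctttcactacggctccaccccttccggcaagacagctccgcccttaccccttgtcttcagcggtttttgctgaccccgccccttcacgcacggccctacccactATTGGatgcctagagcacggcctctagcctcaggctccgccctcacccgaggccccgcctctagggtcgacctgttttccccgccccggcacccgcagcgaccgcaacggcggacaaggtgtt
Idi1 holds 2 matches and Sc5d and Acss2 1 each. On both strands the letters CCAAT were found in 37.4% of all 32851 promoters and, in at least 1 promoter, in 17 of 18 genes of the cholesterol list with one in the table. A gene can have several listed promoters, so the share of promoters and the count of genes are not like for like. Because nearly all genes of the list had a match, a match could not separate higher from flat genes, and its part in the differences was not tested.

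Heat shock genes were lower at week 10 as a group. These genes encode chaperones that refold proteins, and many are driven by the factor HSF1. Of 19 counted, 16 were lower in any amount, 4 were at least 1.5-fold lower and 0 were 1.5-fold higher, with a median of −0.32. The 18 further probe sets of the list had a median of −0.36, with 6 at least 1.5-fold lower and 0 higher, against 10.2% and 11.1% of the further probe sets of all genes. The median was −0.33 after loess and −0.29 after quantile normalization, and −0.46 on the high-fat diet, where 9 of 19 were at least 1.5-fold lower.

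Chordc1, an HSP90 co-chaperone, read 1281 at week 2 and 559 at week 10, or −1.20. Hsph1, an HSP70 exchange factor, read 1896 and 976, or −0.96, with −0.84 on its second probe set. Hspa1b, the stress-inducible HSP70, read 2793 and 1612, 2154 and 1060, and 1405 and 653 on 3 probe sets. All 3 were lower at week 10, although its near-identical copy Hspa1a may share them. Hsp90aa1, the inducible HSP90, was at −0.56, −0.60 and −1.75 on its 3 probe sets, and Dnaja1, an HSP40, at −0.49 and −0.44. Hspb1, the small HSP27, was at −0.32 and −1.09. Hspa8, the constitutive HSP70, read 13724 and 14182, and lay between −0.27 and 0.05 on its 3 bright probe sets. Cirbp, which is known to be induced by cold, was the list's highest at 0.50, but at −0.71 on the high-fat diet.

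Promoters of 2 of these genes are shown for the heat shock element core, written GAANNTTC with N for any base, in capitals. Chordc1 lies at chr9:18292017-18292316 on the plus strand and Hspa1b at chr17:34959189-34959488 on the minus strand of the same build.
Chordc1: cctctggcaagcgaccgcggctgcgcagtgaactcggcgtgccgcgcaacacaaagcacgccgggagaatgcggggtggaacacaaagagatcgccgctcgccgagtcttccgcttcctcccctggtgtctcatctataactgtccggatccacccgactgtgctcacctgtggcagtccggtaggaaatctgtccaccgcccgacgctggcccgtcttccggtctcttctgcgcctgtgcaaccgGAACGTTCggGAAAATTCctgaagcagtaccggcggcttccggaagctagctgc
Hspa1b: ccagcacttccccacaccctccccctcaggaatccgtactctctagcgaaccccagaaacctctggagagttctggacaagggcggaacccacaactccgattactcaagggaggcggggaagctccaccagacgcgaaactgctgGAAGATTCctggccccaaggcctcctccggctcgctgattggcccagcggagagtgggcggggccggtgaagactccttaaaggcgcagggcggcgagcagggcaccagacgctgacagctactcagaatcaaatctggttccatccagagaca
Chordc1 holds 2 matches next to each other and Hspa1b 1. The motif, which reads the same on both strands, was in 7.86% of all promoters. In at least 1 promoter it was in 11 of 17 genes of the list with one in the table. The first is a share of promoters and the second a count of genes, which can have several promoters, so they are not like for like. A match describes these letters and is no measure of binding.

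Macrophage and Kupffer cell markers were lower at week 10. Of 18 counted, 16 were lower in any amount, 9 were at least 1.5-fold lower and 0 were 1.5-fold higher, with a median of −0.58. That median was −0.55 after both loess and quantile normalization. The 20 markers with a probe set summed to a signal of 29621 at week 2 and 21654 at week 10, and 0 of them were at the floor on both arrays. On the high-fat diet the sum went from 25841 to 30823, with a median of 0.19 over the markers counted. Fewer cells of a type and less RNA per cell cannot be told apart in whole liver. The 6 further probe sets of these genes had a median of −0.14, with 1 at least 1.5-fold lower and 1 higher, so the list rests mostly on 1 probe set per gene.

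Cd5l, a secreted macrophage protein, read 3326 and 1616, or −1.04, and Clec4f, a lectin specific to Kupffer cells, 2129 and 1063. Cd163, the haemoglobin scavenger receptor, read 352 and 169, or −1.06, and Marco, a scavenger receptor, went from 361 to the floor, at least 2.34-fold lower. Tyrobp and Fcer1g, adaptors of activating receptors, were at −0.90 and −0.75. Vsig4, a complement receptor, was at −0.68 and Adgre1, a surface receptor used to mark macrophages, at −0.64. The complement genes C1qa, C1qb and C1qc were at −0.61, −0.47 and −0.79. Csf1r, the receptor on which macrophages depend, read 3439 and 3291, and Lyz2, Cd14 and Slc40a1 lay between −0.07 and 0.09. The list was therefore not uniformly lower. Cd5l read 3149 and 3658 and Clec4f 1863 and 2246 on the high-fat arrays, so the control week 10 array was the lowest of the 4 for both. Cd163, at −0.96, and Marco, at least 2.12-fold, were lower at week 10 on the high-fat diet as well.

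Lists of the other cell types had smaller medians where at least 5 genes were counted. Of 13 endothelial markers, 11 were lower in any amount, 2 at least 1.5-fold lower and 1 at least 1.5-fold higher, with a median of −0.35, or −0.30 after quantile normalization. Their 7 further probe sets had a median of −0.14, with 0 different by 1.5-fold. The higher one was Eng, the TGF-beta co-receptor endoglin, at 576 and 965, or 0.75, with 0.07 on its second probe set. Oit3, a sinusoidal endothelial gene, read 519 and 176, or −1.56, and Cdh5, the cadherin of endothelial junctions, was at −0.66, with 0.09 on its second probe set, while Stab2, Kdr and Tek lay between −0.16 and −0.05. Lyve1, the hyaluronan receptor of sinusoidal and lymphatic endothelium, went from 1119 to the floor on 1 probe set but from 417 to 324 on the other. Of 19 stellate and matrix genes 3 were at least 1.5-fold lower and 0 higher, led by Dcn, the matrix proteoglycan decorin, at 7752 and 3241, and Vim at −0.88, with −0.09 on its second probe set. Lymphocyte markers had 6 genes counted and a median of 0.25, and neutrophil markers 5 and 0.10. Of 11 skeletal muscle markers none was above the floor on both arrays.

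**Figure D3:**
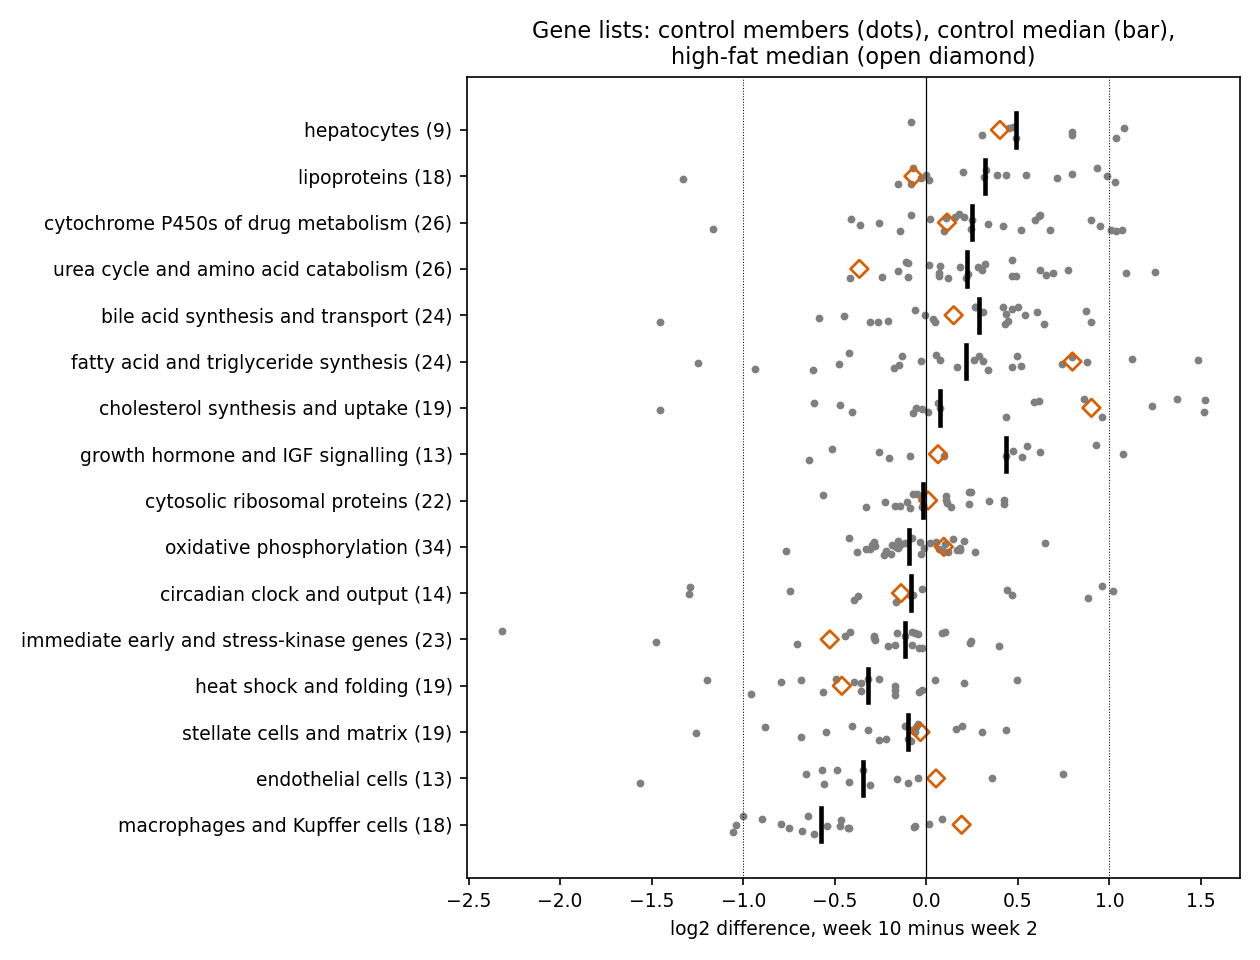
Each dot is 1 gene of a list, counted where above the floor on both control arrays (number in brackets), and its horizontal position is the log2 difference, week 10 minus week 2. Black bars are the control medians, from −0.58 for macrophage and Kupffer cell markers to 0.49 for hepatocyte markers, and open diamonds are the high-fat medians of the same lists.

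Hepatocyte products were higher on the week 10 array, as were the brightest genes in general. Of 9 hepatocyte markers 4 were at least 1.5-fold higher, with a median of 0.49 against 0.59 for the brightest 1%, and the list median became 0.30 after loess and −0.06 after quantile normalization. Ttr, the thyroxine carrier transthyretin, had differences of 0.80, 0.93 and 0.72 on 3 probe sets, and Apoa1, the main protein of high-density lipoprotein, 0.65 to 0.85 on 4. After quantile normalization the brightest probe set gave −0.06 for Ttr and −0.06 for Apoa1. The 18 lipoprotein genes had a median of 0.32, or 0.12 and −0.01 under the same corrections. The medians of these lists thus shrank after loess and fell just under 0 after quantile normalization. Alb, Apoc1 and Apoe stayed higher after quantile normalization, at 0.20, 0.34 and 0.10, and Apoa4 was lower under all 3 scalings.

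Less abundant genes of hepatocyte pathways depended less on the scaling in the cases of Alas1, Gamt and Cyp2c38. Alas1, the rate-limiting enzyme of heme synthesis, read 4738 and 11996, or 1.34, and 1.23 after quantile normalization, although a dim second probe set gave 0.25. Gamt, which makes creatine from guanidinoacetate, read 1145 and 3038, or 1.41, and 1.42 after quantile normalization. The drug-metabolising cytochrome P450 list, with 26 genes counted, held 9 higher and 1 lower by 1.5-fold or more, with a median of 0.25, or 0.18 after loess and 0.15 after quantile normalization. Its 5 further probe sets had a median of −0.13. Cyp2e1, the abundant ethanol-oxidising P450, was at 1.04 but at 0.64 after loess and 0.37 after quantile normalization. Cyp2c38 read 2270 and 4764 on the control diet, or 1.07, and 1.03 after quantile normalization, and 2184 and 4866 on the high-fat diet. Cyp2c55 read 208 and 418, and Cyp2b13 3216 and 6215. Cyp3a44 was the lower one, at 401 and 179. Members of these P450 clusters are close in sequence and may share probes.

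Bile acid genes had 4 of 24 at least 1.5-fold higher and 2 lower, with a median of 0.29, or 0.23 after loess and 0.17 after quantile normalization. Their 12 further probe sets had a median of 0.64, with 7 higher and 0 lower. Akr1d1, the steroid reductase of bile acid synthesis, read 1801 and 3353, or 0.90, but 1146 and 807 on its second probe set, or −0.51. Akr1c6 was at 0.87. Cyp7a1, the rate-limiting enzyme, read 2579 and 3194, a difference of 0.31, against −0.50 on its second probe set. Cyp39a1, the oxysterol hydroxylase, read 3301 and 1206, or −1.45, and was lower still on the high-fat diet at −2.37. Nr0b2, the repressor SHP, was at −0.59.

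Urea cycle and amino acid breakdown, with 26 genes counted, held 6 higher by 1.5-fold or more and 0 lower, with a median of 0.22, or 0.06 after loess or quantile normalization. The 9 further probe sets had a median of −0.10, with 0 higher and 2 lower by 1.5-fold or more. On the high-fat diet 10 genes were lower and 2 higher, with a median of −0.37. Glul, glutamine synthetase of the hepatocytes around the central vein, read 4623 and 9860 on the control diet and 8708 and 3796 on the high-fat diet, with 0.42 and −0.30 on its second probe set. Oat, ornithine aminotransferase, another gene of those cells, read 10559 and 18067 against 14532 and 7434. Both had opposite directions on the diets, and that difference was not tested. Uroc1, of histidine breakdown, was at 1.25 on its brightest probe set and −1.07 on another, and its direction was not settled.

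The fasting-linked genes named in this paragraph lay within 2-fold, which does not cover every gene that follows fasting. Pck1 and G6pc, the key enzymes of glucose output, were at 0.63 and 0.68, or 0.41 and 0.47 after quantile normalization, and Cpt1a, the gate of mitochondrial fatty acid oxidation, at 0.18. Ppara, its nuclear receptor, read 2416 and 4321, or 0.84. Fatty acid oxidation, with 27 genes counted, held 5 higher by 1.5-fold or more and 1 lower, with a median of 0.09, or 0.00 after loess and 0.02 after quantile normalization. Acaa1b, a peroxisomal thiolase, went from 0.97 to 0.59 and 0.32 under these corrections. Slc25a20, the carnitine carrier, was at −0.81, with 0.32 on its second probe set. Igfbp1, a liver protein that rises on fasting, was at −0.20.

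Growth hormone and sex-biased liver genes were mixed. Of 13 growth hormone and IGF genes counted, 3 were at least 1.5-fold higher and 1 lower, with a median of 0.44. That median was 0.23 after loess and 0.14 after quantile normalization. The 17 further probe sets of the list had a median of 0.02, with 0 higher and 1 lower by 1.5-fold or more. Igfals, which stabilises circulating IGF-1, read 480 and 1008, or 1.07, and 568 and 1600 on the high-fat diet. Ghr, the growth hormone receptor, was at 0.62, and Igf1 at 0.47, with −0.42 and −0.11 on other probe sets. Hao2, a hydroxy acid oxidase known to be higher in female mouse liver, read 253 and 1396, a 5.51-fold difference, and 421 and 1703 on the high-fat diet. Elovl3, known to be higher in males, read 344 and 803. Cyp17a1, of steroid synthesis, read 6585 and 2573, or −1.36. The 13 male-predominant genes counted had a median of 0.05, with 3 higher and 0 lower by 1.5-fold or more. The 15 female-predominant ones had a median of 0.24, with 4 higher and 2 lower. Among the genes counted neither list moved as a whole. In each list 2 other genes were at the floor on 1 control array and 2 on both, and the medians leave them out.

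Genes that follow the hour of the day and handling were mixed. Nfil3, a clock-controlled repressor, read 1434 and 584, and Usp2, a clock output, 1236 and 506, though its second probe set gave −0.16. Nr1d1, the clock repressor REV-ERB alpha, was at −0.74, Per1 at 0.88, Bhlhe40 at 0.96 and Noct at 1.02, while Arntl, the core activator BMAL1, read 773 and 727. Dbp and Per2 were at the floor on both control arrays, although Dbp read 469 and 1347 on the high-fat arrays. Fos, an immediate early gene, read 1530 and 307, or −2.32, and Ddit4, a stress-induced inhibitor of mTORC1, 700 and 252. Of 23 immediate early genes 3 were at least 1.5-fold lower and 0 higher. The hour of collection is not in the labels, and its part in these differences was not tested.

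Of 5 long noncoding RNAs counted, 2 were at least 1.5-fold lower and 1 higher, with a median of −0.30, the value of Gas5. Leaving out the deposited scale, that median lay between −0.34 and 0.31 under the alternatives, so its sign was not settled. Neat1, the scaffold of paraspeckles, read 1446 and 346, or −2.06, and 2850 and 1538 on the high-fat diet. Malat1, of nuclear speckles, read 1012 and 566, 915 and 277, and 699 and 261 on its 3 brightest probe sets, against 256 and 387 on a dimmer one. On the high-fat diet its brightest probe set read 4161 and 1913. Gas5, a growth-arrest transcript and the brightest of the 5, was at −0.30, and Meg3, an imprinted RNA, read 522 and 837, or 0.68, with −0.34 on its second probe set. Among other genes with a single usable probe set, Rpgrip1 read 806 and 5282 and Dyrk1b, a kinase, 847 and 186. Col12a1, Bbip1, Gsdme and Capn12 were at 1.77 to 2.22, and Bok and Eef1a2 at −1.63 and −1.48, with no second probe set to check them.

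Some genes crossed the floor, and their differences are bounds. Of 1376 genes at the floor on 1 control array, 62 (4.51%) were at least 2-fold higher at week 10 and 42 (3.05%) at least 2-fold lower. Slco1a1, an organic anion uptake carrier, read 915 at week 2 and was at the floor at week 10, at least 5.92-fold lower. Its second probe set went from 690 to the floor, and on the high-fat diet the first went from 1063 to the floor. Rtp3, a receptor-transporting protein of liver, went from 589 to the floor on the control diet, at least 3.81-fold, and from 596 to the floor on the high-fat diet. Smpd2 went from 583 to the floor, at least 3.78-fold, and from 463 to 164 on the high-fat diet. On the higher side Pmf1 was at least 7.18-fold, Gpatch1 at least 4.00-fold and Utf1 at least 3.71-fold higher. Utf1 was at least 3.30-fold higher on the high-fat diet too.

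**Figure D4:**
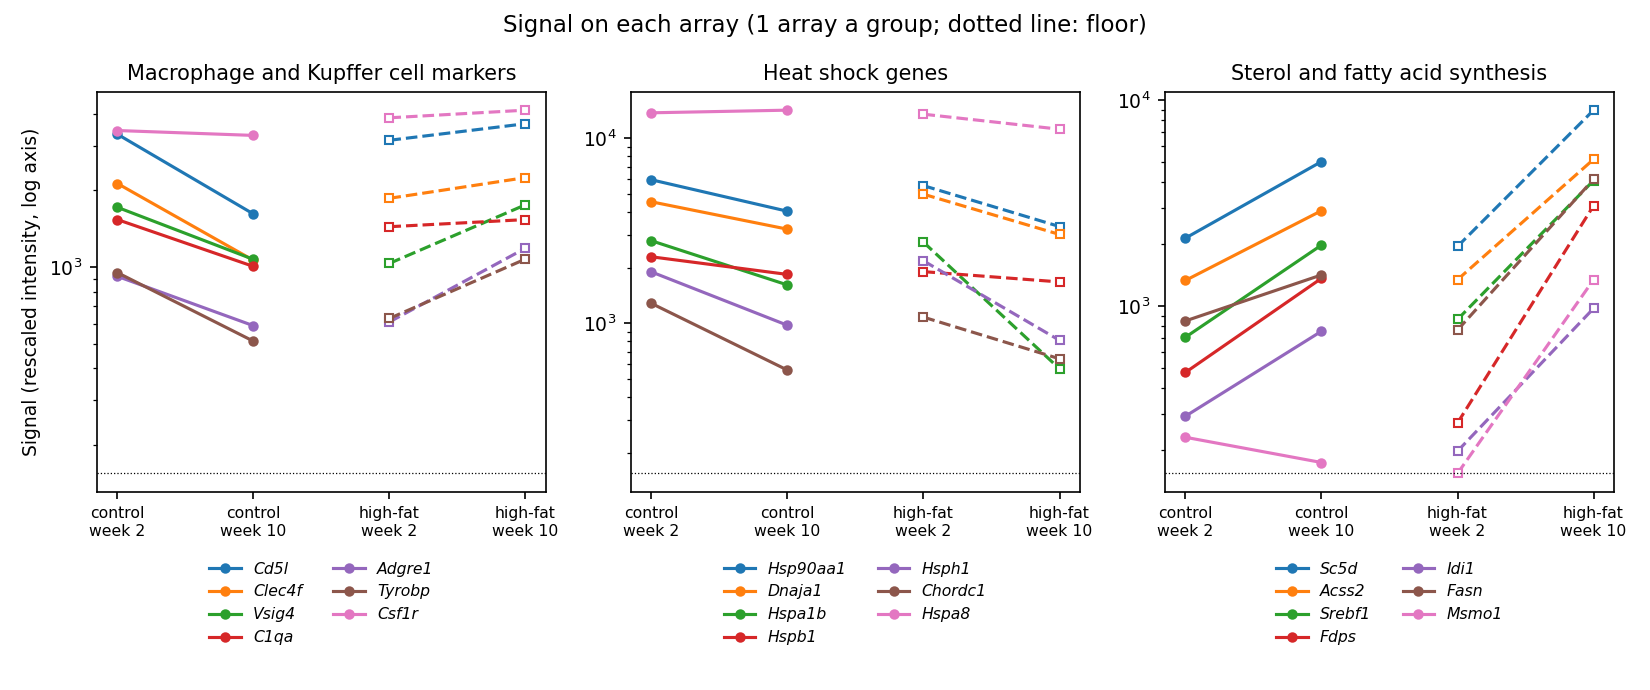
Rescaled signal, on log axes, of 7 macrophage and Kupffer cell markers, 7 heat shock genes and 7 sterol and fatty acid genes, chosen after their values were seen, on the 4 arrays of the smaller design. Solid lines with filled circles join the control weeks and dashed lines with open squares the high-fat weeks, with 1 array a point and the floor dotted. The 7 macrophage genes drawn read less at week 10 than at week 2 on the control arrays, Csf1r by little, and more on the high-fat arrays, unlike Cd163 and Marco, which are not drawn, heat shock genes other than Hspa8 are lower on both diets, and Srebf1, Sc5d, Acss2, Fdps, Idi1 and Fasn are higher on both.

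The control and high-fat pairs can be set side by side because they share no array, and a difference seen in both was measured on 4 separate arrays. Over 7115 genes above the floor on all 4, the differences had a Pearson correlation of 0.17 and a Spearman correlation of 0.16, as a description across genes. Of 155 genes at least 2-fold higher on the control diet, 25 (16.1%) were so on the high-fat diet, against 3.39% of all genes. Another 9 (5.81%) were at least 2-fold lower there, against 4.23% of all. Of 120 lower, 15 (12.5%) were lower on the high-fat diet, against 4.23% of all. A further 7 (5.83%) were higher there, against 3.39% of all. Both directions were above the shares of all genes, the same direction more so. Most 2-fold differences of the control pair were thus not of that size on the other diet.

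The 25 genes higher on both diets held 5 of sterol and fatty acid synthesis, namely Fdps, Srebf1, Idi1, Sc5d and Acss2. These lists made up 40 (0.562%) of the 7115 genes. They were chosen with earlier results of these data known, so the count is a description only. The opposite second probe sets of Idi1 and Sc5d on the control diet are given above. Serpina6, the corticosteroid carrier of plasma, read 2454 and 6549 on the control diet and 1477 and 11157 on the high-fat diet. Apex1, a DNA repair endonuclease, read 449 and 2653, and 717 and 2428, with 0.55 on its second control probe set. Sdc4, a heparan sulfate proteoglycan, read 2897 and 10232, and 5183 and 12351, with 0.29 on its second control probe set. Car3, Hao2, Igfals, Cyp2c38, Ccnd1, Uroc1 and Mup5, a major urinary protein with many close copies, were also among the 25. On the high-fat diet the further probe sets of Ccnd1 gave 0.50 and −0.14, against 1.01 on its brightest. Second probe sets gave 2.73 for Car3 and 1.35 for Acss2 on that diet. For the other genes of the 25, further probe sets are not given on the high-fat diet.

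The 15 genes lower on both diets were of varied function. Atf5, a transcription factor of the mitochondrial stress response, read 6690 and 2621 on the control diet and 7743 and 3153 on the high-fat diet. Cyp39a1 and Defb1, above, were among them. Oplah, which returns 5-oxoproline to glutamate in the glutathione cycle, read 3382 and 1615, and 3290 and 1617. Rusc1 read 566 and 161, and 1201 and 205. Peg3, an imprinted gene known to decline after birth in many tissues, read 812 and 329, and 590 and 227, but its second probe set read 427 and 729 on the control diet, a difference of 0.77 the other way.

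**Figure D5:**
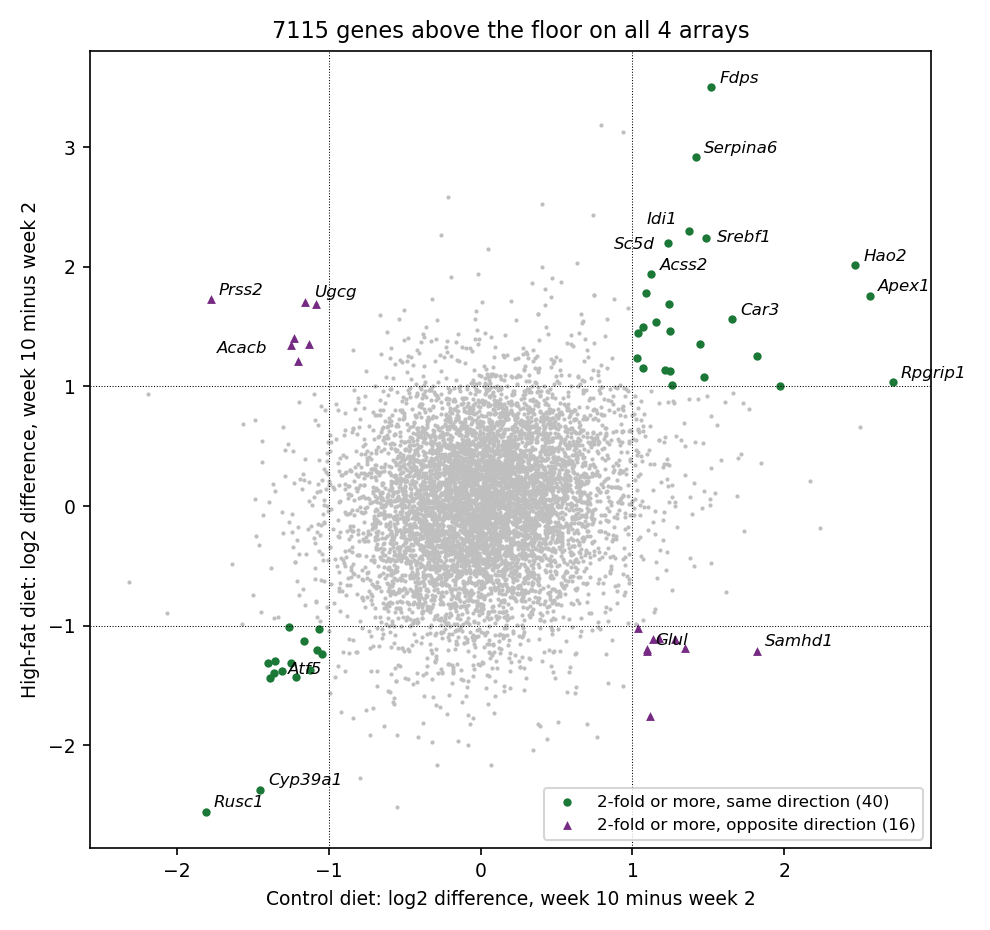
Each point is 1 of 7115 genes above the floor on all 4 arrays, with the log2 difference, week 10 minus week 2, on the control diet horizontally and on the high-fat diet vertically. The 40 green points are at least 2-fold in the same direction on both diets and the 16 purple triangles at least 2-fold in opposite directions.

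Several lists held few genes different by 1.5-fold. None of 22 cytosolic ribosomal protein genes was 1.5-fold different, with a median of −0.02. Of 34 oxidative phosphorylation genes 1 was higher and 1 lower, with a median of −0.10, or −0.20 after loess and −0.17 after quantile normalization. Their 27 further probe sets had a median of −0.20, with 3 at least 1.5-fold higher and 5 lower. Of 26 endoplasmic reticulum folding genes 2 were higher and 1 lower, with a median of 0.01. Fetal liver markers were mostly dim. Afp, alpha-fetoprotein, was at the floor at week 2 and read 159 at week 10, and Igf2, Dlk1 and Gpc3 were at the floor on both arrays. Of 33 cell cycle genes with a probe set, 15, Mki67 and Top2a among them, were at the floor on both arrays. The 14 above it on both included Ccnd1, given above, and Tubb2a, a tubulin gene, at 1666 and 3194.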

How the data were processed

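The authors deposited an intensity for each probe set on a linear scale, 1 column an array. Their summarization software and genome build are not given in the sources used here. The control week 2 array had a trimmed mean of 800.3 in the deposited table and the others 500.2, so they had been scaled to unequal targets. Of 22690 probe sets, 64 control probe sets were left out of the gene tables. Of the other 22626, 20380 had 1 gene symbol in the platform annotation, and 20351 symbols were brought up to date from RefSeq by gene identifier; 691 had several symbols and 1555 were unnamed here.

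Log2 values of each array were shifted to a common median, taken over probe sets above the floor on all 4 arrays of the smaller design. Values under the pooled 40th percentile (7.27 on the log2 scale) were raised to that floor, and a gene at the floor on 1 array gives a bound only. Only genes above the floor on both control arrays enter counts and medians, and a list member that a file or filter left out was not analysed here. The brightest probe set with 1 symbol stood for a gene. With 1 array a group no test was run, and the number of arrays limits the precision.

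The 30 pathway and 13 cell type lists, and the comparison itself, were chosen with earlier results of these data known. Named genes followed a rule: the 12 largest differences per direction supported by a further probe set (at least 1.5-fold the same way, none 1.5-fold the opposite way), the 6 largest per direction with no further probe set, the 6 largest bounds per direction, from each list the 4 members at most that differed most, and a fixed set of regulators and enzymes. Other genes were named after their values were seen. The counts of 2-fold genes, the same-sign share, the correlation between diets, the list medians and the named genes were also computed on the deposited scale, with trimmed-mean, quantile and loess scaling, with other floors and filters (20th and 60th percentile, none, or 1 array above), with probe sets averaged per gene and without probe sets shared between transcripts. The steps were tested on simulated data with a uniform scaling gap and large differences planted in bright genes only. Dim genes and a gap that depends on brightness were not simulated. Python 3.11.15, pandas 2.3.3, numpy 2.4.6, scipy 1.17.1, statsmodels 0.14.6 and matplotlib 3.10.9 were used.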

Additional observations from a re-analysis of the deposited data

Results flagged for a closer look

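With 1 array a group, no sample was set against others of its group. In all, 16 of the 7115 genes above the floor on all 4 arrays were at least 2-fold different in opposite directions on the 2 diets. Whether the diets differ was not tested for any of them. Values are log2 differences, week 10 minus week 2, on the control diet and then on the high-fat diet.

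Lower on the control diet and higher on the high-fat diet were Prss2, a pancreatic trypsinogen (−1.78 and 1.73), Acacb, the mitochondrial acetyl-CoA carboxylase (−1.24 and 1.35), Cd9, a tetraspanin (−1.23 and 1.40), Casr, the calcium-sensing receptor (−1.20 and 1.21), Ugcg, glucosylceramide synthase (−1.15 and 1.71), Dct, of melanin synthesis (−1.13 and 1.36), and Add3, an adducin (−1.08 and 1.69).

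Higher on the control diet and lower on the high-fat diet were Samhd1, a nucleotide hydrolase (1.82 and −1.21), Reep3 (1.34 and −1.19), Cttn, the actin-binding cortactin (1.28 and −1.11), Rreb1, a zinc finger factor (1.17 and −1.10), Ppp1r15b, a subunit of the eIF2 alpha phosphatase (1.13 and −1.11), Wdtc1 (1.11 and −1.76), Mt2, a metallothionein (1.09 and −1.21), Glul, glutamine synthetase (1.09 and −1.20), and Gtf3c2 (1.03 and −1.02). Mt1, the neighbour of Mt2 with a similar sequence, was at 0.93 and −1.51, and its control difference changed sign without shared probe sets. Glul and Mt2 were the brightest of the 16. Second probe sets gave smaller control differences of the same sign where shown here. They were −0.13 for Prss2, −0.35 for Add3, 0.29 for Samhd1 and 0.53 for Reep3. For Cttn, Rreb1, Glul and Gtf3c2 they were 0.44, 0.57, 0.42 and 0.88. Ugcg read 156 at control week 10 and 155 at high-fat week 2, close to the floor of 154.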

How the results depend on the processing

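Trimmed-mean, quantile and loess scaling, a floor passed on at least 1 control array and a table without shared probe sets gave 145 to 238 genes at least 2-fold higher and 100 to 166 lower, within 1.5 times the reported 176 and 124. The values as deposited, whose median over all genes lay at −0.64, gave 24 higher, 1618 lower and a share of same-sign second probe sets of 92.9%. A floor at the 20th percentile gave 405 higher, 402 lower and a correlation between the diets of 0.131. A floor at the 60th percentile gave 101, 43, a share of 82.2% and a correlation of 0.204. With no floor and no filter there were 1060 and 1119, a share of 51.7% and a correlation of 0.0561, with more dim genes counted by construction. Averaging a gene's probe sets gave 101 and 78, of which 96 and 73 were among the reported genes. Of the values of named genes under the alternatives 1586 differed from the reported one by less than 0.42, the SD of 1 probe set, and 297 by more. The deposited scale is among these alternatives, and its shift of all genes alike is larger than 0.42, so it adds to the 297. In 4 cases a difference of 2-fold or more changed sign, each with another probe set standing for the gene. Peg3 was at 0.77 after quantile normalization, and without shared probe sets Sfrp1 was at 0.23, Slc6a6 at 0.84 and Uroc1 at −1.07. Leaving the deposited scale aside, 18 of 199 named genes changed sign under some alternative, 12 of them reported at 1.5-fold or more, among them Hyou1, Malat1, Mt1, Ttr and Apoa1. Of list medians, with the deposited scale again included, 365 differed by less than 0.42 and 54 by more. Leaving out the deposited scale, which shifts all genes alike, the macrophage and Kupffer cell median lay between −0.66 and −0.52, the heat shock median between −0.36 and −0.26, the cholesterol median between 0.04 and 0.58 and the hepatocyte median between −0.06 and 0.52. No replicate could be left out and no paired analysis was possible because each group holds 1 array. Signal near the floor limits dim genes, and the number of arrays limits all values.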
